A study of Mus musculus with 3 samples.

Results

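The genes described here are the Hist1 cluster histone genes of the mouse, chosen by their symbol, which begins with Hist1h. They number 54 of the 32285 genes counted, and comprise 6 H1, 13 H2a, 15 H2b, 9 H3 and 11 H4 genes. All lie on chromosome 13 (build mm10) in 4 runs, from 21715763 to 21837530 (18 genes), 22035164 to 22043676 (5 genes), 23531050 to 23764406 (29 genes) and 23933773 to 23934851 (2 genes). The set was put forward after Hist1h levels in these libraries were known, so the levels of its leading genes are a description.

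Histones package DNA: H2A, H2B, H3 and H4 form the nucleosome core, and H1 binds the linker DNA between nucleosomes. Most Hist1 genes are replication-dependent. They are transcribed in S phase, when new chromatin is assembled, and their mRNAs end in a stem-loop in place of a poly(A) tail, so a kit that primes on poly(A) catches them poorly. Hist1h1c and Hist1h2bc are known to give polyadenylated RNA in cells that do not divide as well. Mki67 (the Ki-67 antigen) and Top2a (topoisomerase II alpha, which untangles DNA before division) are common marks of cycling cells. The colon crypt divides actively, and lymphocytes divide during inflammation.

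Lamina propria mononuclear cells (LPMC) of the large intestine were profiled with a 10x Genomics 3' single-cell kit, in which each captured RNA molecule is counted as a unique molecular identifier (UMI). All mice were C57/BL6J and drank 1.5% dextran sulfate sodium (DSS), which injures the colon epithelium, for 7 days and plain water for the next 3 days. Each received 250 µg of an antibody intraperitoneally 3 times a week, which was control rat IgG (RatIgG), clone DATK32 or clone MECA-367 (MECA367). Each antibody is 1 library, and the age, sex and number of animals are not given in the sources used here. The labels name DATK32 and MECA-367 as surrogates of ontamalimab and vedolizumab, while DATK32 is generally known to bind the integrin α4β7 and MECA-367 its vessel ligand MAdCAM-1, so groups are named by clone.

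Kept barcodes, with at least 500 UMIs and 200 genes and at most 10% mitochondrial UMIs, numbered 7367 in RatIgG, 5852 in DATK32 and 5890 in MECA367, with 17450259 to 18357517 UMIs per library and a median of 1469 to 1824.5 per barcode. Between 7 and 11 barcodes were shared by any pair of libraries. The labels state a sort for viable CD45+ cells, yet epithelial-like barcodes were found in every library (2092 in RatIgG, 1499 in DATK32, 684 in MECA367), where Ptprc, which encodes CD45, stood at 6.01 to 12.1 counts per 1000000 UMIs of the same barcodes (CPM) against 962 to 1201 CPM in T-like barcodes. Cell classes were clustered without histone and cell cycle genes and carry the suffix "like" after their markers. Cluster 12 (401, 705 and 604 barcodes in RatIgG, DATK32 and MECA367) stayed unnamed: it held epithelial Epcam at 1071 to 1334 CPM, a median of 863 to 969.5 UMIs per barcode, and 10.4%, 16.6% and 17.8% of its UMIs in Gm42418 and Gm26917, genes known to take up reads of ribosomal RNA. It is given separately throughout, apart from the other unnamed clusters, because it held most histone-rich barcodes (defined below). Its high Hist1h level is thus a description.

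The annotated transcripts show which members carry a given form of the stem-loop and how much RNA is annotated after it. The core letters TTTTCAGAG, searched on the transcript strand of GENCODE vM21, were found in 21 of the 54 members and were not in the annotated transcripts of the other 33. Other stem-loop letters, or a transcript annotated to end before the loop, would be missed. The 33 may thus carry a stem-loop as well. Of the 21, 20 held the same 16-base stem-loop, and the annotated transcript of the other, Hist1h1a, ends 1 base after the core. The search letters fix part of the stem, so this sameness is partly set by the search. In 9 of the 21 more than 100 bases are annotated beyond the core, and 6 of those 9 hold AATAAA, the usual poly(A) signal, in that stretch. The 4 sites below show the same stem-loop (capitals) in genes that behaved differently in the comparisons that follow.
Hist1h2bm: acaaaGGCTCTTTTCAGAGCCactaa
Hist1h2ae: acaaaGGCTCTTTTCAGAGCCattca
Hist1h1e: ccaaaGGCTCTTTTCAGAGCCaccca
Hist1h1c: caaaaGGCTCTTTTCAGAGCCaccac
The transcript of Hist1h2bm ends 48 bases after the core, that of Hist1h2ae 153 bases after it, that of Hist1h1c 842 bases after it and that of Hist1h1e 1155 bases after it. Hist1h2bc holds no core, and its annotated transcript is a spliced RNA of 1156 bases drawn from a gene of 8710 bases. These are annotated ends; where the counted RNAs ended was not measured.

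The promoters show letters shared by the class. RefSeq promoters (GRCm38.p6, 250 bases before to 50 after the start) were matched for 51 of the 54 members, and motifs were sought on both strands. The CCAAT box, found also as its reverse complement ATTGG, was present in 84.3% of the members' promoters against 37.4% of all 32851 promoters, and TATAAA in 60.8% against 13.6%. By class, CCAAT was found in 6 of 6 H1, 13 of 13 H2a, 14 of 14 H2b and 7 of 7 H3 promoters, and in 3 of 11 H4 promoters. ATTTGCAT, the octamer known to bind Oct-1, was found in 10 members (5 H2a and 5 H2b; 19.6% against 1.74%), and AAACACA, the H1 box, in 9 members (17.6% against 7.18%), of which 5 are H1 genes. A match is a description of the letters and not a shown binding site. The 120 bases before the start are given for 3 H1 genes, which carry the H1 box, and for an H2a gene that lacks it; capitals mark the letters of these motifs on either strand.
Hist1h1b, chr13:21780626-21780745, minus strand: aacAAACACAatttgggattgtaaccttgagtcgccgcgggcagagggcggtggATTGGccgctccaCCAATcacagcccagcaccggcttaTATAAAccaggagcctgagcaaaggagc
Hist1h1e, chr13:23622559-23622678, minus strand: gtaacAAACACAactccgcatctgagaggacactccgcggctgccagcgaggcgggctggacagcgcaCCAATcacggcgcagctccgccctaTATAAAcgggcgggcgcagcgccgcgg
Hist1h1c, chr13:23738687-23738806, plus strand: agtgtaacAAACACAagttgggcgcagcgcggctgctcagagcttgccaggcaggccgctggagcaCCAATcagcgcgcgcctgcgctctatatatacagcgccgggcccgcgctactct
Hist1h2ae, chr13:23571221-23571340, minus strand: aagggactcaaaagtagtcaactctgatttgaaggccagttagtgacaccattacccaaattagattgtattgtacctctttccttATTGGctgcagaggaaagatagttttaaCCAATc
Hist1h1b and Hist1h1e carry all 3 motifs, and the Hist1h1c window holds no TATAAA. These 3 genes with similar promoters differed in cycling barcodes, as the comparisons of barcodes with and without Mki67 or Top2a show.

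In all, 47471 Hist1h UMIs were counted, and a few members held most of them. Hist1h2ap (H2A; chr13:21833026-21833507) had 6552 UMIs, Hist1h1e (H1; chr13:23620629-23622558) 5605, Hist1h1c (H1; chr13:23738808-23740367) 5297, Hist1h2bc (H2B; chr13:23684199-23692908) 4802 and Hist1h1b (H1; chr13:21779883-21780625) 4530. These 5 made up 56.4% of the total and the 12 most abundant members 80.1%. At the other end, 10 members had fewer than 50 UMIs: 8 had 1 to 47, and Hist1h2ba and Hist1h2aa, testis variants, had none. By histone class, H1 genes gave 37.7% of the UMIs, H2a 23.9%, H2b 16.1%, H4 13.6% and H3 8.74%. UMIs of a 3' kit were counted per gene with no length term. Every 50-base stretch of the last 300 bases of Hist1h2ap occurs in other members, 12 of them, so its UMIs may belong in part to near-identical copies; in all, 6 members share every such stretch of their last 300 bases, while 14 share none. Hist1h2be overlaps Hist1h1e on the same strand, so UMIs of these genes cannot be told apart with certainty.

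Over all kept barcodes the summed Hist1h level was 705 CPM in RatIgG (95% Poisson interval 693 to 717), 1104 CPM in DATK32 (1089 to 1120) and 841 CPM in MECA367 (827 to 854). Intervals here cover counting error only. H2a genes differed most, with 120, 303 and 211 CPM, and H2b genes least, with 135, 158 and 134 CPM. Hist1h2ap stood at 58.4 CPM in RatIgG, 180 CPM in DATK32 and 128 CPM in MECA367. Hist1h2bc, in contrast, was nearly level at 90.1, 90.5 and 86.7 CPM, and Hist1h1c stood at 89.5, 105 and 100.2 CPM. Libraries differ in their share of cycling barcodes and of cell classes, so these totals mix cell makeup and level per cell, which cannot be told apart here. The share of barcodes with an Mki67 or Top2a UMI was 17.3%, 20.2% and 16.6%, and cluster 12 held 401, 705 and 604 barcodes.

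**Figure D1:**
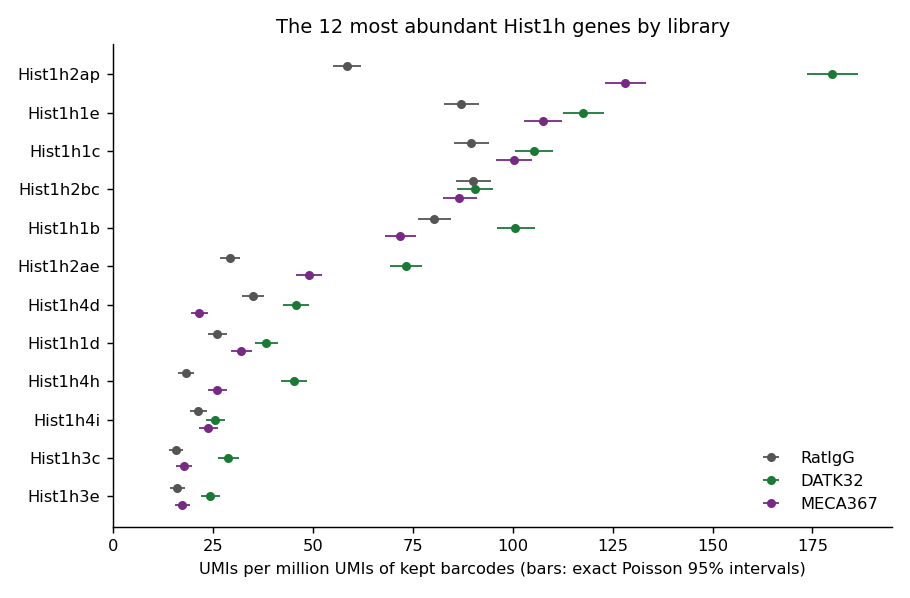
Level of the 12 most abundant Hist1h members (CPM) in the 3 libraries; points are libraries and bars are exact Poisson 95% intervals, which cover counting error only. Hist1h2ap spans 58.4 to 180 CPM, while Hist1h2bc spans 86.7 to 90.5 CPM.

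Between cell classes the summed level covered a wide range. Among named classes it was lowest in endothelial-like barcodes (274 ± 91.6 CPM, SD, n = 3 libraries), smooth muscle-like (328 ± 84.0), stromal-like (339 ± 57.1) and monocyte/macrophage-like ones (363 ± 63.3). Neighbours in this order lay within their spread. Neutrophil-like (520 ± 142), plasma-like (527 ± 27.9), interstitial-cell-of-Cajal-like (ICC-like, pacemaker cells of the gut wall; 603 ± 40.7), NK/ILC1-like (645 ± 125), ILC2-like (676 ± 48.6) and B-like barcodes (732 ± 125) lay between. Epithelial-like barcodes had 743 CPM in RatIgG, 1116 in DATK32 and 895 in MECA367, and T-like barcodes 870, 1128 and 1121 CPM. Their ranges overlap. Cluster 12 stood apart at 4065, 5997 and 5852 CPM, above every named class in each library. It was singled out for its histone-rich barcodes, so this height is no result. The antibody groups serve as the 3 libraries in these SDs, so antibody and library differences are both within them. ILC2-like barcodes numbered 35, 48 and 123 in RatIgG, DATK32 and MECA367, and B-like ones 94 in DATK32. Few Hist1h UMIs lie behind the ILC2-like level, so its small SD does not make it precise.

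The histone classes were mixed differently in each. In T-like barcodes H1 genes averaged 407 CPM, H2a 303, H4 133 and H3 96.6 over the 3 libraries. ICC-like barcodes had H2b genes at 265 ± 41.9 CPM and H2a genes at 32.9 ± 23.3 CPM (SD, n = 3 libraries). In them Hist1h1c was at 191, 125 and 188 CPM and Hist1h2bc at 219, 225 and 293 CPM in RatIgG, DATK32 and MECA367, while Hist1h1b was at 10.4, 0 and 15.7 CPM. An ICC-like level of 603 CPM thus consisted mainly of Hist1h1c and Hist1h2bc, which held 68.6% to 77.4% of the Hist1h UMIs of those without an Mki67 or Top2a UMI.

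Barcodes were then split by whether they held at least 1 UMI of Mki67 or Top2a. Such UMIs were found in 12.8%, 8.71% and 10.1% of T-like and 27.8%, 31.0% and 35.1% of epithelial-like barcodes in RatIgG, DATK32 and MECA367. In types that should hold few dividing cells the shares were 1.67%, 5.74% and 1.97% (smooth muscle-like, library medians of 1046 to 2034 UMIs) and 3.64%, 1.95% and 1.98% (ICC-like, 912 to 1634 UMIs), against library medians of 772 to 1255 UMIs in T-like and 3789.5 to 7362.5 in epithelial-like barcodes.

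In T-like barcodes the summed Hist1h level was 2429 CPM with an Mki67 or Top2a UMI and 441 CPM without in RatIgG, 2923 and 545 CPM in DATK32, and 2758 and 496 CPM in MECA367. Epithelial-like barcodes had 1255 and 411, 1939 and 484, and 1433 and 477 CPM in the same order. The groups did not overlap in either class. Stromal-like (976, 1752 and 1070 against 237, 292 and 263 CPM), plasma-like (1017, 963 and 1149 against 304, 327 and 367), neutrophil-like (844, 1615 and 914 against 334, 253 and 268) and monocyte/macrophage-like barcodes (671, 716 and 801 against 219, 257 and 254) showed the same order in each library. Cluster 12 was higher within each library with the mark, at 4733 against 2513, 6877 against 4326 and 6804 against 4174 CPM, and its level without the mark was above that of T-like or epithelial-like barcodes without it. Depth moved with the split: the median UMI count with and without the mark was 5760 and 3396, 7416 and 4842.5, and 8912 and 6838 in epithelial-like barcodes, and 1360 and 727, 2474.5 and 904.5, and 3080 and 1197 in T-like ones. CPM divides by depth, and the part of depth in the difference was not tested beyond thinning each barcode to 500 UMIs, where only 3 members in epithelial-like and 2 in T-like barcodes pass the filter without the mark and 1 of each was higher by edgeR. In epithelial-like barcodes with at most 2% Gm42418 and Gm26917 UMIs the levels were 1255, 2026 and 1405 CPM with the mark against 402, 465 and 455 CPM without.

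**Figure D2:**
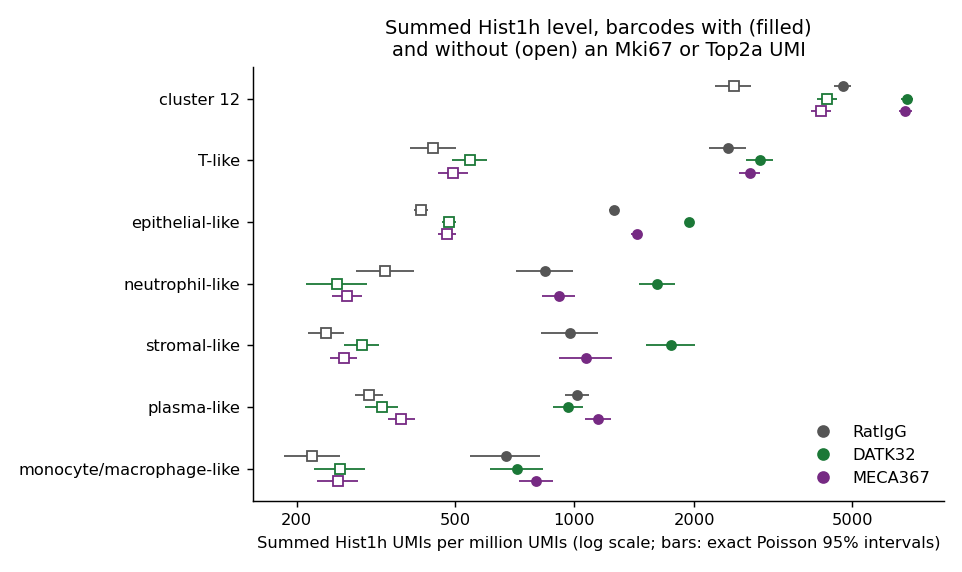
Summed Hist1h level (CPM, log axis) in 7 cell classes and in each library, with (filled) and without (open) an Mki67 or Top2a UMI. Filled points lie above the open point of the same library in every class shown. Examples are 2429 against 441 CPM (T-like, RatIgG) and 6877 against 4326 CPM (cluster 12, DATK32).

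The members were tested one by one in edgeR's quasi-likelihood test on UMI sums of the barcodes with and without the mark, with library as a block and adjustment over all genes. With library as a block, the p-values weigh the difference within a library against its spread over 3 libraries that received different antibodies. edgeR draws that spread partly from all genes tested. In epithelial-like barcodes 33 members passed the filter on low counts and 21 did not. Of these 33, 18 passed it only through the barcodes with the mark, which favours genes that are higher there. These 18 are described by their values alone. Among the 15 that pass on the barcodes without the mark, 13 were higher with it, 2 did not pass the test and none was lower. Of all genes that pass likewise 22.2% were higher (23.3% of all genes tested), and the median log2 fold change was 1.36 for the 15 members and -0.02 for those genes.

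Among the 15, the largest fold changes in epithelial-like barcodes were those of H2A genes. Hist1h2ap stood at 164, 482 and 335 CPM with the mark in RatIgG, DATK32 and MECA367 and at 11.2, 26.5 and 27.1 CPM without, a log2 fold change of 3.90 ± 0.097 (SE; edgeR adjusted p = 1.16e-17). Hist1h2ae (H2A) stood at 78.9, 197 and 133 against 5.32, 11.4 and 9.69 CPM (3.92 ± 0.12; edgeR adjusted p = 1.18e-16). In both genes the groups were separate in every library. Of the members that passed the filter only through the marked barcodes, Hist1h3c (H3; chr13:23744973-23745602) had 151, 260 and 99 UMIs with the mark against 14, 15 and 6 without, Hist1h2ab 50, 139 and 48 against 4, 11 and 1, Hist1h2bm 58, 58 and 28 against 3, 5 and 3, and Hist1h2af 32, 32 and 9 against 1, 0 and 0. The filter favours members that are higher with the mark, so their being higher is no result.

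H1 genes ranged widely. Hist1h1b (chr13:21779883-21780625) stood at 203, 216 and 157 CPM with the mark and at 17.4, 18.1 and 13 CPM without (log2 3.53 ± 0.094; edgeR adjusted p = 2.78e-17). Hist1h1e stood at 126, 163 and 156 against 58.9, 73.6 and 75.8 CPM (1.06 ± 0.077; edgeR adjusted p = 3.39e-10). Hist1h1c stood at 91.5, 111 and 96.7 against 87.1, 102 and 118 CPM (-0.05 ± 0.085, 95% interval -0.23 to 0.13; edgeR adjusted p = 0.677). Of these 3 H1 genes, all with the H1 box and a CCAAT box shown above, Hist1h1b differed most, and the interval of Hist1h1c spans 0. The next lowest fold changes after Hist1h1c and Hist1h2bc were those of Hist1h2ac, which gave 0.93 ± 0.19, and of the H4 genes Hist1h4i, 0.91 ± 0.13 (0.48 and no longer past the test at a mitochondrial limit of 5%), and Hist1h4c 0.74 ± 0.23 (edgeR adjusted p = 0.0124). The Hist1h4c call was lost with DESeq2 (0.73), without the library block (0.77), without DATK32 (0.54) and with Mki67 alone as the mark (0.42).

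Hist1h2bc was the other member that did not pass the test. It stood at 98.9, 107 and 119 CPM with the mark and at 114, 109 and 115 CPM without (-0.10 ± 0.079, 95% interval -0.26 to 0.07; edgeR adjusted p = 0.333). Under other definitions of the mark it was lower, by edgeR with at least 2 UMIs of the pair (-0.32, adjusted p = 0.00286) and with Top2a alone (-0.65, adjusted p = 1.22e-05).

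In T-like barcodes 15 members were tested and 39 were not. Only 4 of the 15 pass the filter on the barcodes without the mark; of these, Hist1h2ap and Hist1h1e were higher, and Hist1h1c and Hist1h2bc did not pass the test. Of all genes that pass likewise 8.79% were higher (11.4% of all genes tested). Without the RatIgG library 7 members pass the filter and 5 of them were higher, beside 418 of 5264 genes that pass it likewise. Hist1h2ap stood at 251, 709 and 753 CPM with the mark against 25.6, 41.0 and 74.4 CPM without (log2 3.53 ± 0.22; edgeR adjusted p = 3.27e-07), and Hist1h1e at 330, 244 and 272 against 80.8, 107 and 104 CPM (1.43 ± 0.21; edgeR adjusted p = 0.000444). Both were separate in every library. Hist1h1c stood at 100.3, 113 and 86.6 against 84.7, 100.4 and 102 CPM (-0.04 ± 0.23, 95% interval -0.53 to 0.45; edgeR adjusted p = 0.927). Hist1h2bc stood at 86.0, 52.2 and 24.0 against 23.6, 31.1 and 27.5 CPM (0.66 ± 0.39, 95% interval -0.19 to 1.50; edgeR adjusted p = 0.259), with an interval that does not exclude a sizeable rise. The other 11 passed the filter only through the marked barcodes. Among them Hist1h1b stood at 545, 287 and 481 against 21.7, 18.4 and 18.4 CPM, Hist1h2ae at 172, 361 and 370 against 11.8, 18.4 and 19.3 CPM, and Hist1h3c at 13, 29 and 31 against 0, 5 and 5 UMIs, given as values with no test.

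In cluster 12 the marked and unmarked barcodes were compared in the same way. Of 32 members tested, 20 pass the filter on the barcodes without the mark alone and 10 of these were higher, while 3.39% of genes that pass likewise were (3.86% of all genes tested). Hist1h2ap stood at 298, 794 and 966 CPM with the mark and 133, 345 and 342 CPM without (log2 1.21 ± 0.14; edgeR adjusted p = 1.31e-14), and Hist1h1b at 700, 765 and 685 against 335, 416 and 392 CPM (0.79 ± 0.13; edgeR adjusted p = 2.56e-07). Hist1h1c was 0.46 ± 0.15 higher (edgeR adjusted p = 0.0325), and Hist1h2bc gave -0.22 ± 0.21 (edgeR adjusted p = 0.616). The difference of these fold changes from those in T-like or epithelial-like barcodes was not tested.

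**Figure D3:**
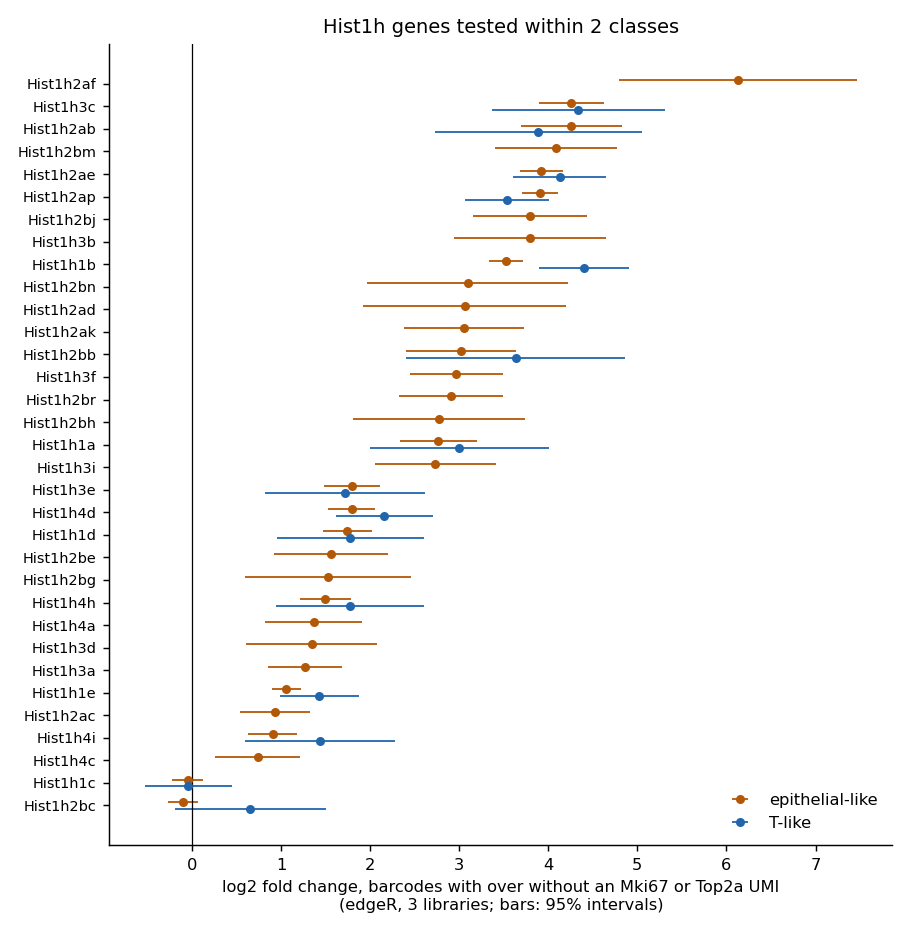
Log2 fold change of each tested member, barcodes with against without an Mki67 or Top2a UMI, in epithelial-like (33 members) and T-like (15 members) barcodes, with 95% intervals from edgeR. Hist1h1c (-0.05 and -0.04) and Hist1h2bc (-0.10 and 0.66) have intervals that reach 0, while Hist1h2ap stands at 3.90 and 3.53. Of the members shown, 18 and 11 passed the low-count filter only through the marked barcodes. That filter favours members that are higher there, so the place of these members above 0 is no result.

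The remaining classes held fewer members above the filter. Among members that pass on the barcodes without the mark, 3 of 6 were higher in plasma-like barcodes (3.29% of genes that pass likewise, 4.74% of all tested), 1 of 3 in neutrophil-like (4.61% and 6.39%), 1 of 3 in monocyte/macrophage-like (0.617% and 1.07%) and 1 of 3 in stromal-like ones (5.11% and 7.63%), and none was lower. Between 40 and 46 members of the 54 were untested in these classes. Hist1h1e was higher in all 4 classes, with log2 fold changes of 0.91, 1.23, 1.32 and 1.87 (edgeR adjusted p = 0.00234, 0.028, 0.0104 and 2.53e-05), and Hist1h2ap (2.90) and Hist1h4d (1.12) were higher in plasma-like barcodes. Neither Hist1h1c (-0.10, 0.63, -0.00 and 0.77) nor Hist1h2bc (0.05, -0.11, 0.52 and 0.10) passed the test in any of the 4. The 95% interval of Hist1h1c was 0.14 to 1.40 in stromal-like barcodes (edgeR adjusted p = 0.0905) and -0.15 to 1.41 in neutrophil-like ones. That of Hist1h2bc was -0.18 to 1.21 in monocyte/macrophage-like barcodes. These intervals do not exclude a sizeable rise.

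Hist1h1c and Hist1h2bc were set aside as a pair after their values were seen. In epithelial-like barcodes they held 15.2%, 11.3% and 15.1% of the Hist1h UMIs with the mark and 48.9%, 43.5% and 48.7% without. Their summed level was 190, 219 and 216 CPM with and 201, 211 and 232 CPM without, while the other 52 members summed to 1065, 1721 and 1217 CPM with and 210, 273 and 245 CPM without. In T-like barcodes the pair's share was 7.67%, 5.65% and 4.01% against 24.6%, 24.2% and 26.1%. Smooth muscle-like barcodes without the mark had 75.0%, 62.7% and 80.5%. Cluster 12 differed, with 8.51%, 7.10% and 8.65% against 15.3%, 9.97% and 8.19%, near or under the epithelial-like share with the mark in both sets.

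**Figure D4:**
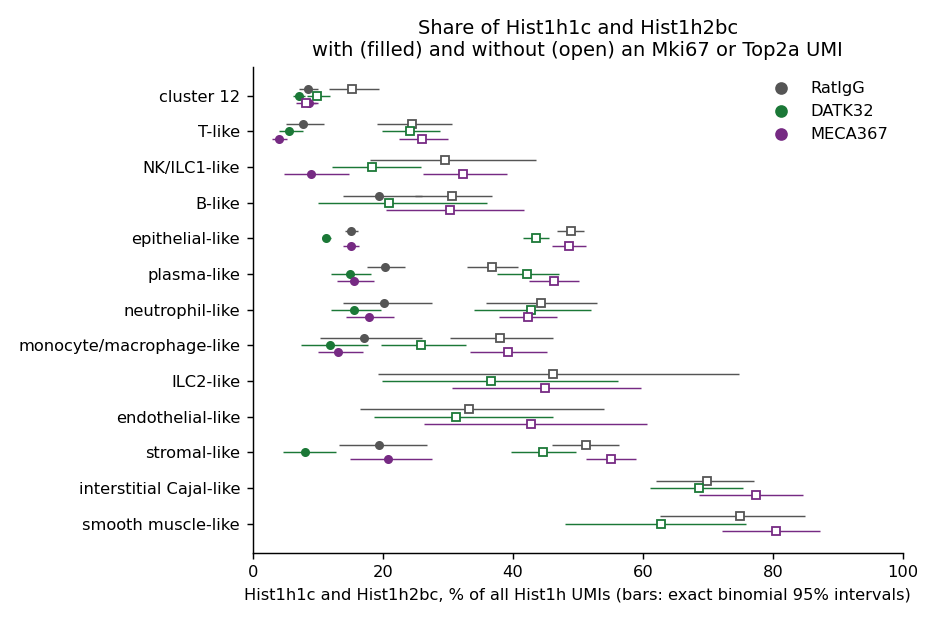
Share of Hist1h UMIs held by Hist1h1c and Hist1h2bc (percent) in each class and library, with and without an Mki67 or Top2a UMI; points are libraries. In epithelial-like barcodes it is 11.3% to 15.2% with and 43.5% to 48.9% without the mark, and in cluster 12 it is under 16% in both.

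Other genes of histone biology moved less uniformly. The counts that follow cover list genes that pass the filter on the barcodes without the mark, beside the 22.2% of such genes higher in epithelial-like and 8.79% in T-like barcodes. Of the other histone genes outside the cluster, 8 of 13 in epithelial-like barcodes were higher, 1 was lower and the median log2 fold change was 0.50. H2afx (the damage-signalling variant H2A.X), H2afz (H2A.Z) and Hist2h2ac gave 1.96, 1.30 and 2.55. H3f3a and H3f3b, which encode the replication-independent variant H3.3, gave 0.09 (edgeR adjusted p = 0.223) and 0.04 (edgeR adjusted p = 0.533). Of the histone supply genes, 10 of 13 were higher (median 0.93). These included Chaf1a (2.58), of the complex that places histones on new DNA, and Nasp (1.43), a carrier of H3 and H4. Slbp, which binds the stem-loop, gave 0.29 (edgeR adjusted p = 0.0105), and Npat, which activates histone transcription, gave 0.20 (edgeR adjusted p = 0.255). In T-like barcodes 4 of 8 other histone genes were higher and 1 lower (H3f3b, -0.38; edgeR adjusted p = 0.0214), and 3 of 8 supply genes were higher, none lower. S-phase genes were higher in 33 of 34 (median 1.61) in epithelial-like and 5 of 8 (1.09) in T-like barcodes, and G2/M genes in 28 of 28 (2.48) and 10 of 13 (1.21).

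The mark and S-phase genes were then combined. Epithelial-like barcodes with at least 2 S-list UMIs and the mark had 1284, 1978 and 1415 CPM of Hist1h, those with S-list UMIs alone had 417, 477 and 470 CPM, and those with neither had 398, 509 and 531 CPM. In T-like barcodes the values were 2666, 2979 and 2923, then 565, 742 and 652, then 371, 444 and 335 CPM. Thus barcodes with S-list UMIs alone were near those with neither in epithelial-like barcodes, and above them in each library in T-like barcodes. The cut of 2 UMIs was applied at full depth and is easier to reach in deeper barcodes. Unmarked barcodes had medians of 3396, 4842.5 and 6838 UMIs in the epithelial-like class and 727, 904.5 and 1197 in the T-like class. The part of depth in this contrast was not tested.

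The last question was whether barcodes with a high Hist1h share are cycling cells or shallow ones. Each barcode was thinned to 500 UMIs, and those with at least 3 Hist1h UMIs, so selected on the members, were called histone-rich. They numbered 220 (2.99%) in RatIgG, 409 (6.99%) in DATK32 and 326 (5.53%) in MECA367, or 955 of 19109 barcodes (5.0%). Just outside the limit, 693 barcodes had 2 Hist1h UMIs, of which 45.0% carried an Mki67 or Top2a UMI. Just inside it, 291 had 3, of which 69.1% did. The highest value was 30.

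Histone-rich barcodes carried the marks and were also shallower. An Mki67 or Top2a UMI was found in 75.9%, 74.6% and 74.2% of them, against 15.5%, 16.1% and 13.2% of the others. At the same 500 UMIs per barcode the shares were 50.9%, 48.7% and 46.9% against 5.65%, 5.79% and 4.22%. Their median depth was 1140, 1011 and 1251 UMIs against 1490, 1574 and 1873. Both statements are about all barcodes pooled, and they come apart by class.

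Most histone-rich barcodes, 658 of 955 (68.9%), lay in cluster 12, which was singled out for that reason. There their median was 945.5 UMIs, next to 898 in the others of the cluster, and 73.1% against 45.6% had the mark. Of the rest, 149 were epithelial-like, with a median of 7292 UMIs against 4605 and the mark in 85.9% against 28.1%. Another 65 were T-like, with a median of 2308 against 1001 UMIs and the mark in 81.5% against 8.25%. Outside cluster 12 histone-rich barcodes were deeper than the others in each library, at 2705.5 against 1537.5, 6462.5 against 1695 and 3671 against 1989 UMIs. They carried the mark in 75.6%, 81.9% and 76.9%. With cluster 12 the depth difference thus had the opposite direction from that without it. Of 3433 barcodes with the mark 20.8% were histone-rich, 50.1% of those in cluster 12, 23.2% of those that were T-like and 9.95% of the epithelial-like ones.

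By depth, the share of histone-rich barcodes outside cluster 12 was lowest under 1000 UMIs in each library (0.448% in RatIgG, 0.607% in DATK32, 0.912% in MECA367) and highest at 8000 UMIs and above (4.29%, 10.6% and 3.37%). Between these bins it did not climb at every step, with 1.58% and then 0.917% from 1000 and from 2000 UMIs in RatIgG, and 2.84% and then 1.99% from 2000 and from 4000 UMIs in DATK32. The pooled share in the deepest bin was 6.09%, and 3.69% without DATK32. In cluster 12 the libraries differed: under 1000, from 1000 and from 2000 UMIs the shares were 37.0%, 30.4% and 8.0% in RatIgG, 42.5%, 44.2% and 27.0% in DATK32, and 32.0%, 49.4% and 38.3% in MECA367. Each barcode was thinned to the same 500 UMIs for this count. Depth also moved with cell class, and the part of class in these shares was not tested. In all, 241 histone-rich barcodes had no Mki67 or Top2a UMI. Their median was 846 UMIs, and 73.4% were in cluster 12. At least 5 S-phase or G2/M UMIs were found in 61.8% of them, against 96.5% of histone-rich barcodes with the mark. Of barcodes that were not histone-rich 38.7% to 43.7% held as many. The lists include Mki67 and Top2a, so the mark itself adds to these counts, which were taken at full depth. At 500 UMIs per barcode the mean S-phase and G2/M count was 3.46 without the mark and 6.30 with it. In barcodes that were not histone-rich it was 1.45.

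**Figure D5:**
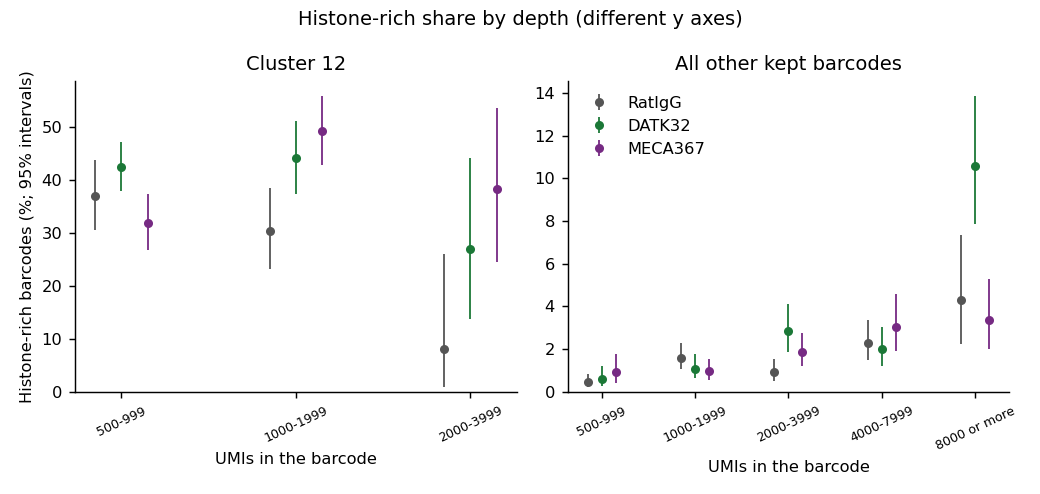
Share of barcodes that are histone-rich (percent, at least 3 Hist1h UMIs of 500) by depth, in cluster 12 and in all other barcodes, with exact 95% binomial intervals; the panels have different vertical scales. Outside cluster 12 the deepest bin holds 4.29% in RatIgG, 10.6% in DATK32 and 3.37% in MECA367; in cluster 12 the libraries run in different directions with depth.

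The members differed in their place in histone-rich barcodes. Hist1h2ap made up 18.1% of the Hist1h UMIs there against 11.5% in the others, and Hist1h1b 12.5% against 7.96%. Hist1h1c made up 5.22% there against 14.3%, and Hist1h2bc 2.01% against 14.4%. By class, H2a genes made up 31.0% against 20.1%, and H2b genes 9.99% against 19.3%. The barcodes were selected on these UMIs, so the shares are a description, and a histone-rich barcode held a median of 8 different members.

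Between the antibodies, each difference rests on 1 library per group, with no replicate check, and both antibody groups are set against the same RatIgG library. A difference is named where it reached 1.5-fold and the exact Poisson 95% intervals were apart. Summed Hist1h was higher in DATK32 than in RatIgG in epithelial-like barcodes (1116 against 743 CPM, 1.50-fold). It lay just at the limit, and its log2 difference of 0.59 was 0.41 without Hist1h2ap and 0.24 in barcodes with no Mki67 or Top2a UMI. Neutrophil-like barcodes were higher in DATK32 than in MECA367 (677 against 400 CPM, 1.70-fold), and smooth muscle-like barcodes lower in DATK32 than in RatIgG (59 against 92 UMIs, 0.593-fold). T-like sums differed 1.30-fold between DATK32 and RatIgG and 1.29-fold between MECA367 and RatIgG, and cluster 12 sums 1.47-fold and 1.44-fold, all under the limit; the cluster 12 differences were past it in unmarked barcodes alone (log2 0.78 and 0.73).

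Single members differed more than the sums. In epithelial-like barcodes 11 of 32 members were past the rule between DATK32 and RatIgG, all higher, against a background of 2.47% of genes either way. Hist1h2ap led at 224 against 71.3 CPM (3.14-fold), with Hist1h2ab (2.74-fold), Hist1h2ae (92.0 against 34.3 CPM, 2.68-fold) and Hist1h3b (2.52-fold). The others were Hist1h2bj (2.11-fold), Hist1h4h (2.02-fold), Hist1h1a (1.97-fold), Hist1h3f (1.95-fold), Hist1h4c (1.80-fold), Hist1h3c (1.66-fold) and Hist1h3e (1.61-fold). Between MECA367 and RatIgG 3 of 32 were past it, with a background of 7.77%: Hist1h2ap (162 against 71.3 CPM, 2.27-fold) and Hist1h2ae (1.86-fold) were higher and Hist1h4d lower (0.561-fold). Between DATK32 and MECA367 8 of 32 were higher (background 6.33%), namely Hist1h4d (2.15-fold), Hist1h2bj (1.94-fold), Hist1h1a (1.80-fold), Hist1h4c (1.75-fold), Hist1h2ab (1.73-fold), Hist1h3f (1.72-fold), Hist1h4h (1.61-fold) and Hist1h3e (1.58-fold). The median log2 differences were 0.26 for the members and -0.04 for all genes between DATK32 and RatIgG, and 0.11 and -0.05 between MECA367 and RatIgG. In epithelial-like barcodes with no Mki67 or Top2a UMI, 3, 1 and 0 of 15 members tested were past the rule in the 3 comparisons. After thinning every barcode to 500 UMIs 4, 1 and 1 of 9 were. Fewer members could be tested there, and the share of all genes past the rule was not taken.

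T-like barcodes had 3 of 13 members past the rule in each comparison. Between DATK32 and RatIgG (background 1.87%) Hist1h2ap (205 against 74.2 CPM, 2.72-fold) and Hist1h2ae (102 against 46.4 CPM, 2.16-fold) were higher and Hist1h1b lower (84.3 against 134 CPM, 0.628-fold). Between MECA367 and RatIgG (background 7.77%) Hist1h2ap (262 against 74.2 CPM, 3.47-fold) and Hist1h2ae (116 against 46.4 CPM, 2.44-fold) were higher and Hist1h3a lower (0.307-fold). Between DATK32 and MECA367 (background 5.73%) Hist1h4h (2.18-fold) and Hist1h4d (2.07-fold) were higher and Hist1h1b lower (0.581-fold). The H1 gene Hist1h1b was thus lower in DATK32 than in either of the other libraries, while Hist1h2ap was lowest in RatIgG. In those with no Mki67 or Top2a UMI, 0, 1 and 1 of 5 members tested were past the rule. After thinning to 500 UMIs 1, 1 and 0 of 5 were, and the share of all genes was not taken in either setting.

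In cluster 12, 11 of 35 members were higher in DATK32 than in RatIgG (background 2.82%), 8 of 35 higher in MECA367 than in RatIgG (9.14%) and 2 of 35 higher in DATK32 than in MECA367 (3.71%), none lower. After thinning to 500 UMIs 4, 2 and 2 of 24 members tested were past the rule. Among barcodes with no Mki67 or Top2a UMI 3, 5 and 1 of 16 were, and the share of all genes was not taken in either setting. Hist1h2ap stood at 248, 639 and 740 CPM in RatIgG, DATK32 and MECA367 and was the leading gene in MECA367 (2.97-fold). In DATK32 against RatIgG the members were Hist1h2bj (2.65-fold), Hist1h4h (2.60-fold), Hist1h2ap (2.56-fold), Hist1h3f (2.31-fold), Hist1h4a (1.98-fold), Hist1h3a (1.96-fold), Hist1h4c (1.90-fold), Hist1h2bm (1.87-fold), Hist1h4d (1.78-fold), Hist1h4i (1.73-fold) and Hist1h2ae (1.55-fold). In MECA367 against RatIgG the others were Hist1h3f (2.19-fold), Hist1h2bj (2.02-fold), Hist1h3a (1.97-fold), Hist1h4h (1.90-fold), Hist1h2ae (1.87-fold), Hist1h4i (1.79-fold) and Hist1h3e (1.70-fold), and between DATK32 and MECA367 they were Hist1h2br (2.02-fold) and Hist1h2ak (1.71-fold). Hist1h2ap and Hist1h2ae were thus past the rule in both treated libraries in T-like and epithelial-like barcodes and in cluster 12, and Hist1h2ap shares its tail with 12 other members. In RatIgG, Hist1h2ap was also lowest in the other named classes except ILC2-like and ICC-like ones. Examples are stromal-like (13.4, 35.5 and 25.9 CPM in RatIgG, DATK32 and MECA367) and plasma-like barcodes (46.9, 75.8 and 91.4 CPM). ILC2-like barcodes had 130, 19.8 and 98.4 CPM and ICC-like ones 3.48, 31.3 and 0 CPM, from few UMIs. Whether the difference lies in the shared RatIgG library was not tested. The share of UMIs in Gm42418 and Gm26917 in cluster 12 was 10.4% in RatIgG against 16.6% and 17.8%. With both genes left out of the total, 12 of 35 members were past the rule in DATK32 and 13 of 35 in MECA367 against RatIgG. The share of all genes was not taken there.

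Across the class-by-library points (33 points, 6555 genes; points of a library share its depth), the genes whose level was most like the summed Hist1h level were Lrrc47 (r = 0.73), Me2 (0.71), Mdh1 (0.71), Dnajc9 (0.70) and Hmgb2 (0.70). Mki67 gave 0.55 (rank 114) and Top2a 0.52 (rank 202), H2afz 0.50, Slbp 0.40 and Pcna 0.26. The correlations are a description with no test.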

How the data were processed

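Gene-by-barcode matrices of UMI counts were deposited by the authors. They were made with Cell Ranger 6.0.2 on build mm10, per the submitters' processing notes, and the annotation, strand setting and cell filter are not given in the sources used here. The members and gene lists were chosen with earlier results of these data known.

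Barcodes under 500 UMIs or 200 genes, or over 10% mitochondrial UMIs, were removed. Clusters (scanpy 1.11.5; 2000 variable genes without histone and cell cycle genes, 30 components, 15 neighbours, Leiden, seed 1) were named only from markers set down in the design. Doublets were kept, and removal of the highest Scrublet scores was an alternative. Sums per class and library were tested with edgeR 4.0.16 (TMM, low-count filter, library as block, adjusted p under 0.05) in R 4.3.3, and the scripts were tested on simulated data. Antibody differences had 1 library per group and no test. DESeq2 1.42.0, other filters, marks, cluster settings and scalings were alternatives. Members with at least 50 UMIs could be named: the 12 most abundant, the 5 highest and 5 lowest log2 fold changes of each split and every member past the antibody rule; Hist1h1c and Hist1h2bc were paired after their values were seen. Mki67 and Top2a define the split and are not reported as its results. A 3' UMI count has no length term. Poisson and binomial intervals (95%) cover counting error only.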

Additional observations from a re-analysis of the deposited data

How the results depend on the processing

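Of the members that pass the low-count filter without the mark, 13 of 15 were higher with it in epithelial-like and 2 of 4 in T-like barcodes. Without RatIgG, DATK32 and MECA367 in turn it was 14 of 16, 12 of 15 and 17 of 19 in epithelial-like barcodes. In T-like barcodes it was 5 of 7, 2 of 4 and 2 of 3. The absence of a replicate block for the library gave 12 of 15 and 2 of 4, and DESeq2 the same. Thinning to 500 UMIs gave 1 of 3 and 1 of 2. A mitochondrial limit of 5% gave 4 of 7 (epithelial-like), and no more than 2% Gm42418 and Gm26917 UMIs 1 of 2 (T-like). These last settings tested fewer members. The share of all genes moved as well. With DESeq2, 1194 of 10516 genes that pass likewise were higher in epithelial-like and 175 of 4537 in T-like barcodes. After thinning 73 of 2608 and 16 of 1873 were, against 2334 of 10516 and 399 of 4537 in the main setting. Without RatIgG, DATK32 and MECA367 in turn 1889 of 10469, 1666 of 10352 and 2367 of 11160 such genes were higher in epithelial-like barcodes. In T-like ones 418 of 5264, 379 of 4843 and 181 of 4120 were. No replicate block gave 1483 of 10516 and 304 of 4537. The limit of 5% mitochondrial UMIs gave 1089 of 6952 (epithelial-like), and that of 2% Gm42418 and Gm26917 UMIs 272 of 2974 (T-like). Over every member tested, whose filter favours those that are higher, the counts were 31 of 33 and 13 of 15, with 29 to 33 and 12 to 14 without a library, 30 and 13 without the replicate block, 5 of 7 and 5 of 6 after thinning, 11 of 15 at 5% mitochondrial UMIs (epithelial-like) and 7 of 8 at no more than 2% Gm42418 and Gm26917 UMIs (T-like). The Hist1h4c and Hist1h2bc calls given above depend on the setting. The labels give the groups no shared replicate numbers.

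The epithelial-like log2 difference between DATK32 and RatIgG (0.59) fell just under the limit with 1000 UMIs and 500 genes (0.58), resolution 0.5 (0.58) and all genes in clustering (0.58), and further under it without Hist1h2ap (0.41) and without marked barcodes (0.24). Values that passed the limit only under an alternative were 0.71 for MECA367 against RatIgG after thinning and 0.74 for DATK32 against MECA367 at 5% mitochondrial UMIs (epithelial-like). In cluster 12 they were 0.70 and 0.69 (DATK32 and MECA367 against RatIgG) with TMM scaling, 0.60 and 0.82 with 1000 UMIs and 500 genes, 0.66 and 0.65 with Gm42418 and Gm26917 left out, and 0.78 and 0.73 without marked barcodes. Of 102 such values, 87 stayed on the same side of the limit, and their direction was not counted. In T-like barcodes DATK32 against MECA367, for example, went from 0.01 to -0.20 at 5% mitochondrial UMIs. The cause of the changes was not tested.

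The share of histone-rich barcodes with the mark was 63.1%, 64.4% and 59.0% at 2 UMIs of 500, 83.8% at 5 UMIs (RatIgG), 92.4%, 89.8% and 84.7% at 6 UMIs of 1000, 84.5%, 88.3% and 82.9% with 1000 UMIs and 500 genes, and 88.6%, 89.2% and 85.3% with 5 S-phase or G2/M UMIs as the mark. Without cluster 12, an alternative chosen after seeing the data, as were those on Gm42418 and Gm26917 and on unmarked barcodes, it was 81.9% in DATK32, and the depth ratio of histone-rich to other barcodes reversed to 1.76, 3.81 and 1.85 from 0.765, 0.642 and 0.668. With Gm42418 and Gm26917 out of the total, summed Hist1h was 719, 1131 and 861 CPM in all barcodes and 4539, 7188 and 7121 CPM in cluster 12. With 1 library per antibody, no antibody difference can be set against replicate spread.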
